A study of Mus musculus with 6 samples.

Results

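Hepatic-type transcription factors were followed as 8 genes of the deposited count table, Hnf4a, Hnf4g, Foxa1, Foxa2, Foxa3, Onecut1, Cebpa and Cebpb, out of 18512 entries. The cells were NMuMG, an epithelial line derived from mouse mammary gland, and the RNA of 6 libraries was sequenced. The groups, of 2 libraries each, were cells given the vehicle DMSO, cells given TGF-β (5 ng/ml), and cells given TGF-β together with 2APB (50 uM), a blocker of store-operated calcium entry. All cells had been serum-starved for 4 h. The study's results text gives the treatments as 24 h, its methods place 2APB before TGF-β, and cells given 2APB alone were not analysed here. The 8 genes were chosen by name with their counts in these same 3 groups already known, so their own values are given as a description and carry no test. The lists of related genes below were also drawn up with earlier results of these data known. In RNA of a whole culture, fewer cells of a type and less RNA per cell cannot be told apart.

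Liver-enriched transcription factors work as a network that binds its own promoters as well as those of liver genes. HNF4α, a nuclear receptor, drives genes of plasma proteins, apolipoproteins and clotting factors, and the FOXA proteins are forkhead factors that open chromatin before other factors bind. ONECUT1, also called HNF6, acts in liver, bile duct and pancreas development, while C/EBPα and C/EBPβ are leucine zipper factors of differentiation and of the acute-phase response. The same factors are used in gut, pancreas and lung epithelium, and both C/EBP genes are also used in myeloid cells.

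RefSeq promoters (GRCm38.p6) were found for 7 of the 8 genes, all but Hnf4g. The 250 bases before a start were searched on both strands for ATTGAT (ONECUT), TGTTTAC (FOXA), CAAAGTCCA (HNF4) and TTNNGNAA (C/EBP). Of 32851 promoters of that length, 6.72% held the ONECUT letters, 3.17% the FOXA letters, 0.384% the HNF4 letters and 36.8% the C/EBP letters. Hnf4a has an upstream promoter, used in pancreas, and a downstream promoter, used in adult liver, and the gene-level counts do not separate them. Hnf4a is shown because it was the most abundant of the 8 genes per length in DMSO. The upstream promoter of Hnf4a and 1 of the 3 Foxa2 promoters are printed, with that of Alb, the albumin gene, for comparison. For Hnf4a and Foxa2, the printed promoter is the only promoter of the gene that held matches. Capitals mark the matches to any of these letters on either strand.
Hnf4a upstream promoter, chr2:163506607-163506856, plus strand: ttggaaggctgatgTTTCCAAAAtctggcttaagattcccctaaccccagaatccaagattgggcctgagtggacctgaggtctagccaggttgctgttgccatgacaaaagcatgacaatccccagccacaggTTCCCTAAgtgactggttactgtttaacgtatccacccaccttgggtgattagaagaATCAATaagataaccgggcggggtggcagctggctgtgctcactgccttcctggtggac
Foxa2 promoter, chr2:148046970-148047219, minus strand: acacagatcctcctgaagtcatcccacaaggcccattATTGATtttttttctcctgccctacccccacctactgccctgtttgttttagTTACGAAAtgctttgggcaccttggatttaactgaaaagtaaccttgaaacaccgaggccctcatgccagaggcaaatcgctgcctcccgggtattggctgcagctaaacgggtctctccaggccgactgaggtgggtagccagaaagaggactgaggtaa
Alb promoter, chr5:90460620-90460869, plus strand: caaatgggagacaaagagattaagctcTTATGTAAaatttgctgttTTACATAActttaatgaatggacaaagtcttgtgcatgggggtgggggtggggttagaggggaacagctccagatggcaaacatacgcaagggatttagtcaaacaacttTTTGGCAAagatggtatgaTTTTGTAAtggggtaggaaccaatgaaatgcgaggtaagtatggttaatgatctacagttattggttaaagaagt
The ONECUT letters in the upstream Hnf4a promoter began 59 bases before the start. C/EBP letters lay there at 236, 235 and 116 bases. The Foxa2 promoter held ONECUT letters at 213 bases before its start and C/EBP letters at 161, and the Alb promoter held C/EBP letters at 223, 204, 94 and 75 bases. None of the 4 motifs was found in the downstream window of Hnf4a, in the other 2 Foxa2 windows or in the windows of Foxa3, Onecut1, Cebpa or Cebpb. The Foxa1 window held the FOXA letters at 141 bases and C/EBP letters at 221. A match describes letters and not binding, which was not measured.

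The deposited counts summed to 71840570 to 79473182 per library, every value was even, and edgeR tested the 13353 genes whose normalized counts averaged 20 or more. A Benjamini-Hochberg false discovery rate (FDR) of 0.05 or less was a call. The culture was checked against its label. The luminal keratins Krt8 (252654 and 234425 normalized counts in DMSO) and Krt18 (173694 and 161005) and the adhesion gene Cdh1 (91180 and 90601) were abundant. Of the 4 basal markers, Krt5, Krt14 and Trp63 had 5.897 or fewer normalized counts in every library, and Acta2 had 19.66 and 10.33 in DMSO, 107.1 and 47.73 under TGF-β and 91.07 and 86.81 under TGF-β+2APB. Epcam had 127.8 and 163.2 in DMSO. Several hepatocyte markers were abundant in DMSO, with Alb at 31570 and 28821 and Ttr, the thyroxine carrier transthyretin, at 17200 and 15245, while Tat, Cyp3a11, Ahsg and Asgr1 had at most 10.33. Intestinal markers were present too, with the brush-border gene Vil1 at 35377 and 32877. The mammary luminal factors Gata3 (33.41 and 28.92) and Elf5 (17.69 and 8.264) were low in DMSO, so that epithelial transcripts stood beside liver-type and gut-type ones.

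Replicate 2 of TGF-β+2APB stood apart in leukocyte-type transcripts. The 4 leukocyte markers summed to 1395 normalized counts there, against 166.3 in replicate 1 and 203.4 to 477.6 in the other 4 libraries. Ptprc, which encodes the leukocyte antigen CD45, was at 741.8 against 35.64 in replicate 1, and the macrophage gene Cd68 at 619.5 against 118.8, while the T-cell gene Cd3e was at or near 0 throughout. The log2 fold changes of the 7 fitted members between the treatments are therefore also given without it.

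In DMSO cells 3 of the 8 genes were abundant, and Hnf4a led. Levels between genes are compared as RPKM, which are counts per kilobase of exon scaled for library size. Hnf4a was at 115 and 114 RPKM in the 2 DMSO libraries, Foxa2 at 58.8 and 59.5, and Cebpb at 55.0 and 45.4. Cebpa (9.81 to 10.5) and Foxa3 (4.84 to 5.0) followed, then Onecut1 (0.838 to 0.986), Foxa1 (0.502 to 0.682) and Hnf4g (0.108 to 0.123). No neighbours in this DMSO order overlapped. Among 17519 genes with an exon length, Hnf4a ranked 311, Foxa2 719 and Cebpb 864 in DMSO by mean RPKM.

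The order changed with treatment. With TGF-β it was Hnf4a (38.1 to 51.8 RPKM), Cebpb (32.7 to 36.1), Foxa2 (22.8 to 32.4) and Cebpa (3.47 to 4.76), with Foxa1 above Foxa3 and with Onecut1 and Hnf4g overlapping at the bottom. With TGF-β+2APB, Cebpb (38.6 to 55.7 RPKM) stood above Hnf4a (23.0 to 31.0) and Foxa2 (11.3 to 17.2), and Onecut1 and Hnf4g again overlapped. By mean RPKM, Hnf4a ranked 1885 and Foxa2 3541 among all genes in that group.

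**Figure D1:**
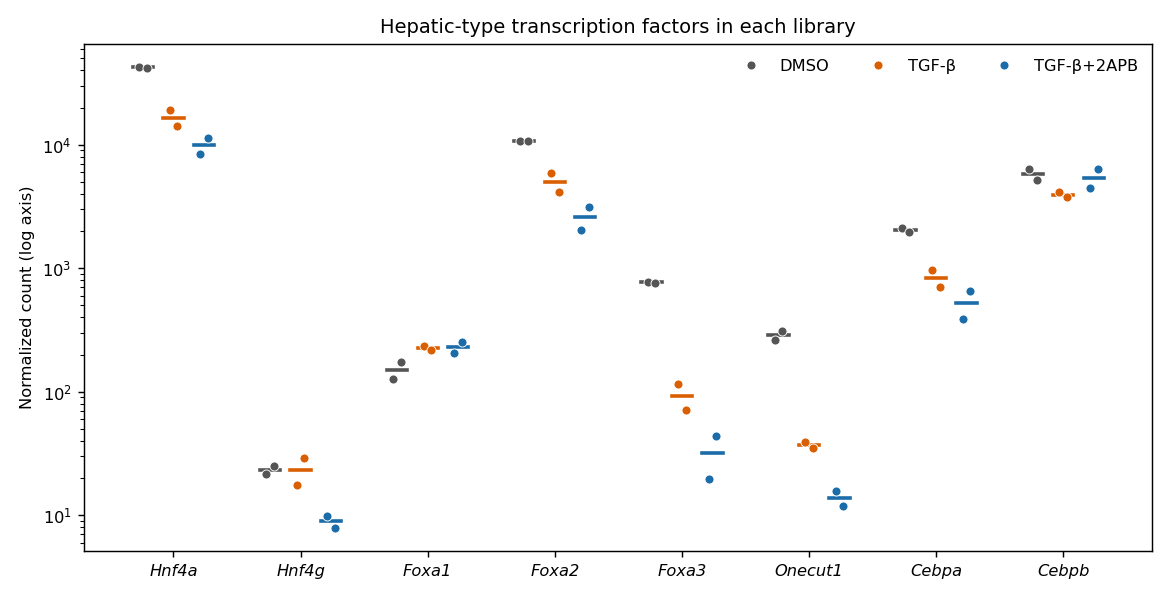
Normalized counts (log axis) of the 8 factors. Each point is 1 library and each bar the mean of the 2 libraries of a group. Hnf4a, Foxa2, Foxa3, Onecut1 and Cebpa step down from DMSO to TGF-β to TGF-β+2APB without overlap, while Foxa1, Cebpb and Hnf4g do not. The share of all genes that separate in this way was not counted.

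Hnf4a (chromosome 2, 163506808 to 163572910, plus strand) had 42565 and 41967 normalized counts in DMSO, 19117 and 14068 under TGF-β, and 8487 and 11430 under TGF-β+2APB. The 3 groups did not overlap, and both treated groups were below DMSO. For this and the other members, the share of all genes whose groups did not overlap was not counted. The fitted log2 fold change was -1.35 (SE 0.195) for TGF-β against DMSO, -2.09 (SE 0.2) for TGF-β+2APB against DMSO and -0.74 (SE 0.193) for TGF-β+2APB against TGF-β. Without replicate 2 of TGF-β+2APB the last was -0.97. The antisense gene Hnf4aos overlaps Hnf4a and had 6 to 46 deposited counts, and reads of the pair cannot be told apart if strand was not used. Hnf4g (chromosome 3, 3508030 to 3658052, plus strand), the paralog known from intestine and kidney, had 21.62 and 24.79 normalized counts in DMSO, 17.53 and 29.05 under TGF-β, and 9.899 and 7.892 under TGF-β+2APB. The DMSO and TGF-β libraries overlapped and those with 2APB were below both. Its mean of 18.46 was under the minimum of 20, so it was not fitted, and 7 of the 8 genes were. Hnf4a made up 99.6% to 99.9% of the summed HNF4 RPKM in every library.

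Foxa2 (chromosome 2, 148042877 to 148046969, minus strand), a factor of endoderm and gut tube, had 10653 and 10787 normalized counts in DMSO, 5873 and 4138 under TGF-β and 2053 and 3107 under TGF-β+2APB. Its groups did not overlap. Foxa3 (chromosome 7, 19013284 to 19023538, minus strand), the paralog with the most liver-restricted use, had 778.3 and 754.1 in DMSO, 114.9 and 70.56 under TGF-β and 19.8 and 43.41 under TGF-β+2APB. Its groups did not overlap either, and its TGF-β libraries held 15% and 9.21% of the DMSO mean. Foxa1 (chromosome 12, 57540628 to 57546916, minus strand), a factor of luminal mammary cells, prostate and lung, went the other way, with 127.8 and 173.5 in DMSO, 235.7 and 217.9 under TGF-β and 205.9 and 254.5 under TGF-β+2APB. Both DMSO libraries of Foxa1 were below the 4 treated ones, and the treated groups overlapped.

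The fitted log2 fold changes of the FOXA genes kept that split. For TGF-β against DMSO they were -1.10 for Foxa2 (SE 0.242), -3.04 for Foxa3 (SE 0.397) and 0.59 for Foxa1 (SE 0.234). For TGF-β+2APB against TGF-β they were -0.96 for Foxa2 (SE 0.242), -1.55 for Foxa3 (SE 0.412) and 0.02 for Foxa1 (SE 0.231), and without replicate 2 of TGF-β+2APB they were -1.29, -2.23 and -0.14. Foxa2 still held most of the summed FOXA RPKM, with 91.4% and 91.5% in DMSO, 95.1% and 94.6% under TGF-β and 92.4% and 93.1% under TGF-β+2APB. Foxa1 was 0.781% and 1.05% of that sum in DMSO and 6.60% and 5.43% under TGF-β+2APB, while Foxa3 was 7.77% and 7.44% in DMSO and 1.04% and 1.51% under TGF-β+2APB.

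Onecut1 (chromosome 9, 74861921 to 74891781, plus strand) had 263.4 and 309.9 normalized counts in DMSO, 38.96 and 35.28 under TGF-β and 15.84 and 11.84 under TGF-β+2APB. The groups did not overlap, and its TGF-β+2APB libraries held 5.53% and 4.13% of the DMSO mean. Its fitted log2 fold change was -2.94 (SE 0.270) for TGF-β against DMSO and -1.42 (SE 0.283) for TGF-β+2APB against TGF-β, the latter -1.23 without replicate 2 of TGF-β+2APB. The 2 paralogs, which were not among the chosen genes, were tested. Onecut3 had 131.7 and 136.4 in DMSO, 767.5 and 840.4 under TGF-β and 1845 and 1559 under TGF-β+2APB, and it rose in each comparison (log2 2.58, SE 0.13, edgeR FDR 0.000113 for TGF-β against DMSO, and log2 1.08, SE 0.12, edgeR FDR 0.00598 for TGF-β+2APB against TGF-β, where it was 1.20 without replicate 2 of TGF-β+2APB). Onecut3 kept these calls in every alternative run. Onecut2, the most abundant of the 3, had 50661 and 51960 in DMSO, 21371 and 39804 under TGF-β and 20214 and 21961 under TGF-β+2APB. It fell under TGF-β+2APB against DMSO (log2 -1.28, SE 0.277, edgeR FDR 0.0109, 0.0529 without DMSO replicate 2) but its TGF-β value of -0.75 (SE 0.274) had an FDR of 0.0778, was called by DESeq2 (FDR 0.0205), and was called at -0.36 without TGF-β replicate 1 and at -1.26 without TGF-β replicate 2. Onecut3 made up 0.858% and 0.864% of the summed ONECUT RPKM in DMSO and 23.6% and 19.4% under TGF-β+2APB, and Onecut1 went from 1.99% and 2.28% to 0.235% and 0.171%.

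Cebpa (chromosome 7, 35119293 to 35121928, plus strand) had 2113 and 1977 normalized counts in DMSO, 958.4 and 699.3 under TGF-β and 390.0 and 657.0 under TGF-β+2APB. The groups did not overlap, although replicate 2 of TGF-β+2APB stood close to the lower TGF-β library. Its log2 fold change was -1.30 (SE 0.272) for TGF-β against DMSO and -0.66 (SE 0.273) for TGF-β+2APB against TGF-β, the latter -1.09 without replicate 2 of TGF-β+2APB. Cebpb (chromosome 2, 167688915 to 167690418, plus strand) had 6321 and 5221 in DMSO, 4147 and 3756 under TGF-β and 4437 and 6398 under TGF-β+2APB. The DMSO and TGF-β libraries did not overlap, and those with 2APB overlapped DMSO and lay above TGF-β. For TGF-β+2APB against DMSO its log2 fold change was -0.09 (SE 0.192), and it was -0.36 without replicate 2 of TGF-β+2APB and 0.14 without replicate 1. Against TGF-β it was 0.46 (SE 0.193), and 0.16 without replicate 2 of TGF-β+2APB. Cebpa and Cebpb were both higher in the library with the leukocyte-type transcripts than in its partner, as were Hnf4a, Foxa1, Foxa2 and Foxa3. Onecut1 and Hnf4g were lower there. The part of such cells in the levels of these genes was not tested. Reads of Tmem189, which overlaps Cebpb on the other strand, could not be separated from it if strand was not used (912 to 1380 deposited counts).

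Among the C/EBP paralogs and partners 8 of 9 genes were tested. With TGF-β against DMSO 0 rose and 1 fell (12.5% called, beside 41.5% of all genes). Under TGF-β+2APB against DMSO 2 rose and 2 fell (4 of 8 called, beside 52.8% of all genes). In the comparison of the treatments 1 rose and 1 fell (25.0% called, beside 17.5%). Cebpd, a partner of the acute-phase response, had 1307 and 1151 normalized counts in DMSO, 1030 and 676.5 under TGF-β and 142.5 and 278.2 under TGF-β+2APB, and fell in the last group (log2 -2.55, SE 0.363, edgeR FDR 0.00225 against DMSO). Its call against TGF-β (log2 -2.02, SE 0.358, edgeR FDR 0.0182) ended without either DMSO library, with a replicate block and with only the 4 libraries compared, with FDR values up to 0.0573, and was kept at -2.59 without replicate 2 of TGF-β+2APB. Trib3, a pseudokinase of the stress response, rose with 2APB from 520.1 and 454.5 to 1475 and 1198 (log2 1.46, SE 0.141, edgeR FDR 0.00469 against TGF-β, and 1.59 without replicate 2 of TGF-β+2APB), and Ddit3, which encodes CHOP, fell in both treatments (log2 -0.94 and -1.41, edgeR FDR 0.00681 and 0.00112). Cebpg was not called. Cebpb made up 65.9% and 61.5% of the summed RPKM of Cebpa, Cebpb, Cebpd and Cebpg in DMSO and 73.7% and 78.4% under TGF-β+2APB, while Cebpa went from 12.6% and 13.3% to 3.70% and 4.59%.

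**Figure D2:**
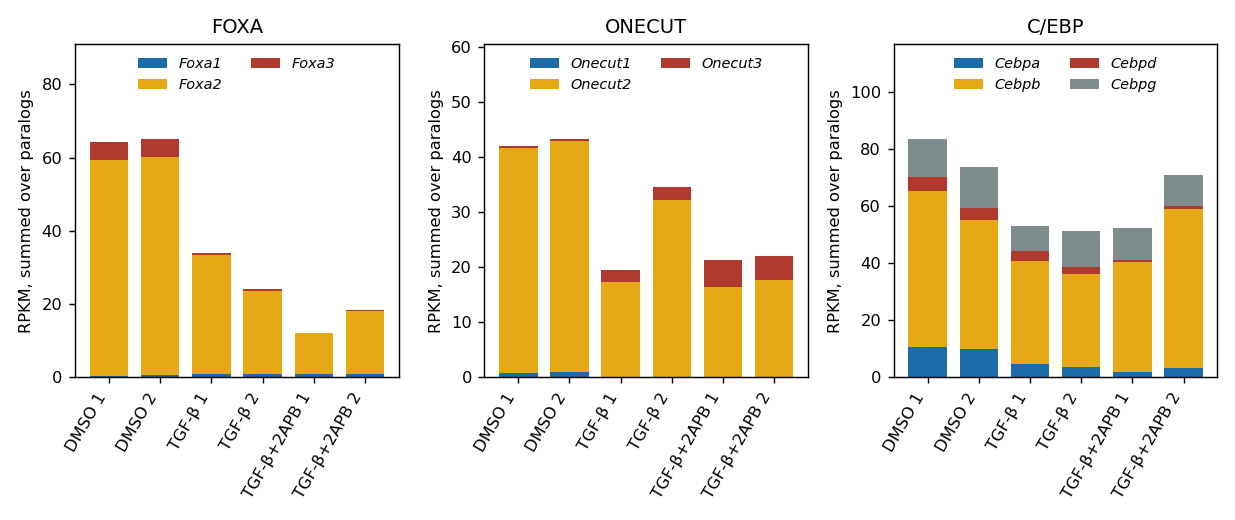
RPKM (counts per kilobase of exon, scaled for library size) of the FOXA, ONECUT and C/EBP paralogs in each of the 6 libraries, stacked by gene. Foxa2 takes most of the FOXA sum in every library, Onecut3 grows with treatment within the ONECUT sum, and Cebpb is the largest C/EBP share.

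Over the tested members the median log2 fold change was -1.30 for TGF-β against DMSO, where that of all genes was -0.01, -2.06 for TGF-β+2APB against DMSO, where that of all genes was -0.0033, and -0.74 for TGF-β+2APB against TGF-β. The last median was -1.16 without replicate 2 of TGF-β+2APB, with Hnf4g then fitted too, and -0.50 without TGF-β replicate 1. By the call applied to every gene, 5 of the 7 fitted members were lower and 0 higher under TGF-β against DMSO, beside 41.5% of all genes called (21.8% higher and 19.7% lower). Against DMSO, TGF-β+2APB gave 5 lower and 0 higher, beside 52.8% of all genes (25.6% higher and 27.2% lower), and against TGF-β it gave 2 lower and 0 higher, beside 17.5% (6.58% higher and 10.9% lower). The 7 genes were chosen on these contrasts, so the counts describe them and do not test them. By DESeq2 and with crossed replicate numbers, 6 were lower under TGF-β against DMSO. With only the 4 libraries compared, where Hnf4g was fitted too, 6 were lower as well. The 5 under TGF-β against DMSO became 3 without either DMSO library. The 2 between the treatments became 0 with a replicate block, with only the 4 libraries compared, without either DMSO library and without TGF-β+2APB replicate 1, became 1 without a minimum count and without TGF-β replicate 1, became 3 with scaling by library size, and became 4 by DESeq2, with halved counts and without TGF-β replicate 2 and 5 with crossed replicate numbers.

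**Figure D3:**
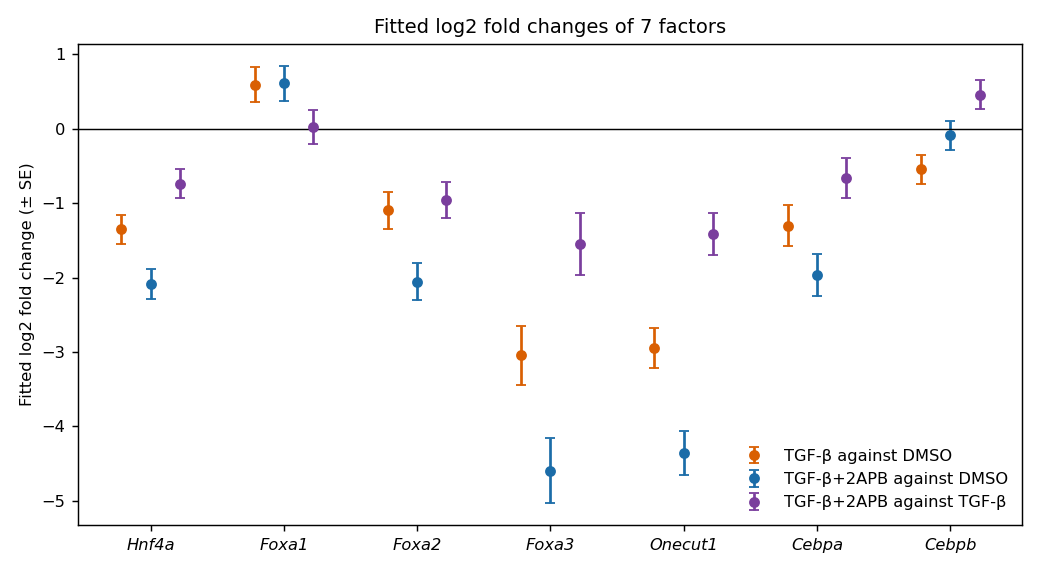
Fitted log2 fold change (± SE of the fit) of the 7 fitted factors in 3 comparisons, from all 6 libraries. Foxa3 and Onecut1 have the lowest values against DMSO, at -4.59 and -4.36 under TGF-β+2APB, and Foxa1 is above 0 in both comparisons with DMSO.

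The genes with the profile most like each member were found by the root mean square difference of centred log2 CPM over the 6 libraries. Ttc38 (0.0437) and Mt1 (0.0745), a metallothionein, were nearest to Hnf4a, which itself ranged over 2.33. Atp9a (0.0916) and Abcc4 (0.108), a drug efflux pump, were nearest to Foxa2, and Ffar4 (0.0945), a fatty acid receptor, and Gstm2 (0.118) to Foxa3. Gm996 (0.152) and Lmtk3 (0.153) were nearest to Onecut1, Traf5 (0.0641) and C1qtnf6 (0.0772) to Cebpa, Egr2 (0.0715) and Igsf9b (0.0973) to Cebpb, and 4833418N02Rik (0.0389) and Gpr161 (0.0903) to Foxa1. With 6 libraries in 3 groups such nearness says only that the genes stepped in the same way.

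Against DMSO most of the called genes among the other liver-enriched factors fell. Of the 23 tested, 13 fell and 2 rose under TGF-β against DMSO, 15 fell and 3 rose under TGF-β+2APB against DMSO, and 3 fell and 2 rose between the treatments. Nr1i2 and Klf15 reached the minimum mean only through DMSO, with means of 195.7 and 66.82 there, so they could enter only as lower in treatment. Without a minimum, 13 fell and 2 rose of 26 under TGF-β, and 16 fell and 3 rose under TGF-β+2APB, against DMSO. The counts of calls were 9 against DMSO without either DMSO library for TGF-β, 11 without DMSO replicate 2 for TGF-β+2APB, and 9 without TGF-β replicate 1 between the treatments. The shares called were 65.2%, 78.3% and 21.7%, beside 41.5%, 52.8% and 17.5% of all genes, and the median log2 fold changes were -0.75, -0.72 and -0.07.

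Nr5a2, the receptor LRH-1 of bile acid and pancreatic genes, fell from 670.2 and 586.7 normalized counts in DMSO to 118.8 and 122.4 under TGF-β and to 13.86 and 25.65 under TGF-β+2APB. It fell in each comparison (log2 -2.38, SE 0.273, edgeR FDR 0.00157 for TGF-β against DMSO, and log2 -2.60, SE 0.302, edgeR FDR 0.00675 for TGF-β+2APB against TGF-β, where it was -3.11 without replicate 2 of TGF-β+2APB). The xenobiotic receptor Nr1i2 fell from 182.8 and 208.7 to 7.792 and 6.226 under TGF-β (log2 -4.78, SE 0.323, edgeR FDR 0.000266) and the lymphatic and hepatoblast factor Prox1 from 2866 and 3006 to 714.9 and 809.3 (log2 -1.95, SE 0.102, edgeR FDR 0.000128). The homeobox gene Hhex fell with 2APB from 14259 and 11370 to 3572 and 5714 (log2 -1.46 against TGF-β, SE 0.236, edgeR FDR 0.0147), as did Nr1h4, the bile acid receptor FXR, from 1451 and 1314 to 237.6 and 398.5 (log2 -2.12, SE 0.239, edgeR FDR 0.00635). Without replicate 2 of TGF-β+2APB these were -1.85 for Hhex and -2.54 for Nr1h4.

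**Figure D4:**
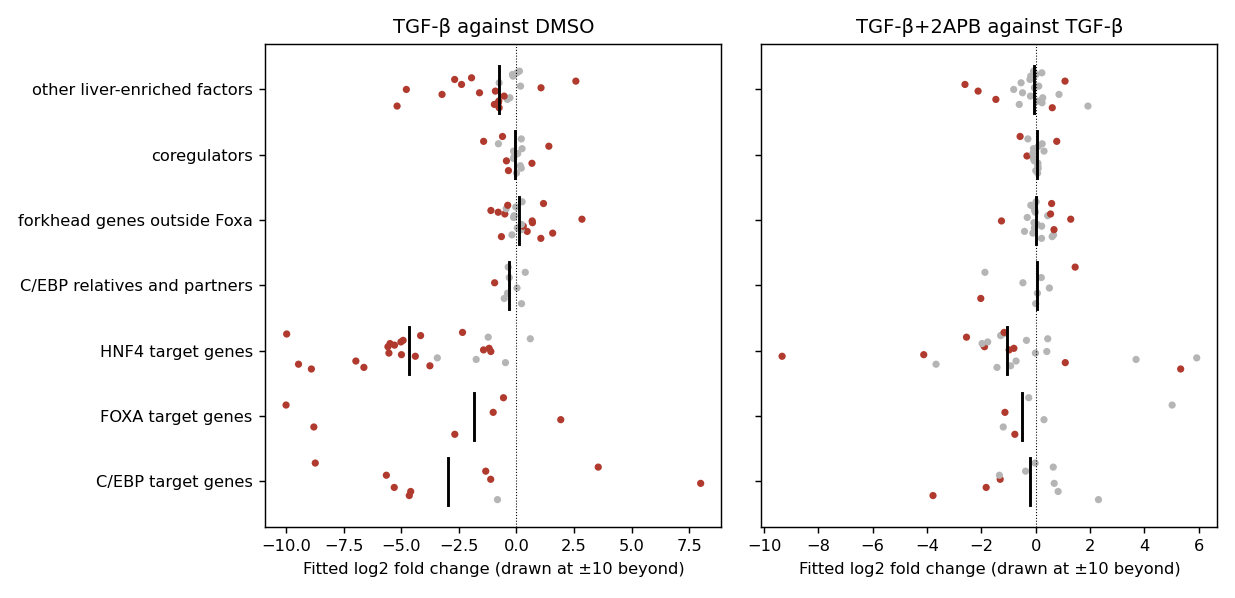
Fitted log2 fold change of each tested gene in 7 gene lists, for TGF-β against DMSO (left) and TGF-β+2APB against TGF-β (right). Red points passed an FDR of 0.05, grey points did not, and black bars are list medians. The HNF4 target genes lie furthest below 0 on the left, with a median of -4.65.

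Among the tested target genes of the 3 factor families, most fell against DMSO. Some reached the minimum mean only through DMSO, as Abcg8 did with a mean of 59.59 there, 0 under TGF-β and 4.939 under TGF-β+2APB. Others, as Muc2 and Il6, reached it only through the treated groups. The lists hold well-known targets of each family in liver, gut, lung, fat or myeloid cells. They were chosen with earlier results of these data known, so their counts are no independent support. Of the 40 HNF4 targets 24 were tested. Under TGF-β against DMSO 19 fell and 0 rose (79.2% called, beside 41.5% of all genes). Under TGF-β+2APB against DMSO 20 fell and 0 rose (83.3% called, beside 52.8%). The median log2 fold change for TGF-β against DMSO was -4.65 as fitted and -4.35 with groups at 0 set to a floor of 3 counts per library. The near-identical Serpina1a to Serpina1e entered the counts and the median as separate genes. Against TGF-β, TGF-β+2APB gave 8 lower and 2 higher (41.7% called, beside 17.5% of all genes). Of the 2 higher, Abcg8 lay at the floor, with deposited counts of 0 and 0 under TGF-β and 4 and 6 under TGF-β+2APB. Its rise was at least 1.64-fold if each count was a separate read, and the call ended with a replicate block (edgeR FDR 0.0646). Every deposited value was even. If reads were counted more than once, this bound and the other bounds below are too large.

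Apoa1, the main protein of high density lipoprotein, had 10820 and 9101 normalized counts in DMSO and 21.43 and 6.226 under TGF-β (log2 -9.46, SE 0.382, edgeR FDR 6.67e-05), with deposited counts of 0 and 2 in TGF-β+2APB. Ttr fell from 17200 and 15245 to 27.27 and 4.15 under TGF-β (log2 -9.97, SE 0.473, edgeR FDR 9.84e-05). The fibrinogen chain Fga fell in steps, from 1732 and 1653 to 107.1 and 53.95 and to 0 and 0, so it was at least 570.8-fold lower under TGF-β+2APB than in DMSO and at least 27.2-fold lower than under TGF-β. Fgb, another chain, went from 13931 and 13512 to 549.3 and 313.4 and to 11.88 and 37.49, and also fell between the treatments (log2 -4.12, SE 0.473, edgeR FDR 0.00652, and -5.18 without replicate 2 of TGF-β+2APB).

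Apob, the protein of very low density lipoprotein and an HNF4 target, did not follow. It had 368528 and 364439 normalized counts in DMSO, 198639 and 329290 under TGF-β and 531964 and 592557 under TGF-β+2APB. It rose against TGF-β (log2 1.09, SE 0.229, edgeR FDR 0.0288), a call that ended without any of the DMSO or TGF-β+2APB libraries and with only the 4 libraries compared, with FDR values up to 0.0837. The hepatocyte markers other than Apob summed to 130828 and 119738 normalized counts in DMSO, 4926 and 3320 under TGF-β and 1422 and 2310 under TGF-β+2APB. Asgr1, a receptor gene of that list, went the other way, from 3.931 and 2.066 in DMSO to 72.07 and 56.03 under TGF-β (log2 4.35, SE 0.483, edgeR FDR 0.0014). The clotting genes F7 and F10 had 258.5 and 507.1 in the library with leukocyte-type transcripts and 1.98 and 11.88 in its partner, and neither was called.

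All 6 tested FOXA targets of the 17 were called against DMSO in both treatments, with 5 lower and 1 higher. Of all genes, 41.5% and 52.8% were called in these comparisons. Alb fell from 31570 and 28821 to 93.5 and 41.5 under TGF-β (log2 -8.79, SE 0.415, edgeR FDR 9.84e-05) and was at 39.6 and 19.73 under TGF-β+2APB. Afp, the fetal counterpart of albumin, kept more of its level, with 7487 and 6898 in DMSO, 1290 and 965 under TGF-β and 568.2 and 757.6 under TGF-β+2APB (log2 -2.67, SE 0.195, edgeR FDR 0.000334 for TGF-β against DMSO). Pdx1, a pancreatic and duodenal factor, fell in each comparison, from 870.7 and 867.7 to 444.1 and 421.3 and to 221.7 and 173.6 (log2 -1.13 between the treatments, SE 0.153, edgeR FDR 0.00935, and -0.97 without replicate 2 of TGF-β+2APB). Tff3, a secreted trefoil peptide, was at 898.2 and 683.9 in DMSO and 0 in both TGF-β libraries, at least 262.2-fold lower. The mucin gene Muc2 was the target that rose, from 5.897 and 10.33 to 31.17 and 31.13 (log2 1.93, SE 0.425, edgeR FDR 0.0155, 0.109 without DMSO replicate 1).

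Of the 10 tested C/EBP targets of 23, 7 fell and 2 rose against DMSO in both treatments. That was 90.0% called in each, beside 41.5% and 52.8% of all genes. The complement gene C3 fell from 182670 and 186130 to 9782 and 4918 under TGF-β (log2 -4.65, SE 0.827, edgeR FDR 0.00719) and was at 152.4 and 917.4 under TGF-β+2APB. The heme carrier Hpx fell from 24083 and 22542 to 771.4 and 408.8 (log2 -5.30, SE 0.434, edgeR FDR 0.000496) and the acute-phase gene Saa3 from 2201 and 2159 to 9.74 and 0. The 2 that rose are inflammatory genes. Ptgs2, the inducible cyclooxygenase, rose from 273.2 and 303.7 to 2392 and 4393 under TGF-β (log2 3.56, SE 0.339, edgeR FDR 0.000836), and Il6 rose from 0 in both DMSO libraries to 38.96 and 24.9, at least 10.6-fold (edgeR FDR 0.00212).

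Over all 80 target genes 40 were tested. Against DMSO 31 fell and 3 rose under TGF-β (85.0% called, beside 41.5% of all genes). Under TGF-β+2APB 32 fell and 3 rose against DMSO (87.5% called, beside 52.8%). The share called between the treatments was 37.5%, beside 17.5% of all genes. Between the treatments 13 fell and 2 rose, and the 15 calls became 7 without either DMSO library, 25 without TGF-β replicate 2 and 6 with only the 4 libraries compared. Without replicate 2 of TGF-β+2APB, 15 fell and 0 rose. The near-identical genes Serpina1a to Serpina1e all fell against DMSO in both treatments, and reads may have been split among them.

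The coregulators are proteins that HNF4α, FOXA and C/EBP factors use in common with others, and they were called about as often as all genes. Of 16, 4 fell and 2 rose under TGF-β against DMSO (37.5% called, beside 41.5% of all genes), 5 fell and 3 rose under TGF-β+2APB against DMSO, and 2 fell and 1 rose between the treatments (18.8% called, beside 17.5%). Nrip1, the corepressor RIP140, rose from 2105 and 2072 to 4710 and 6400 under TGF-β (log2 1.41, SE 0.155, edgeR FDR 0.00134). Ppargc1b, a coactivator of fat oxidation genes, fell under TGF-β from 558.2 and 566.1 to 214.3 and 205.4 (log2 -1.42, SE 0.157, edgeR FDR 0.00136) and was at 397.9 and 321.6 under TGF-β+2APB. Its rise between the treatments (log2 0.78, SE 0.155, edgeR FDR 0.025) ended without either DMSO library, without TGF-β+2APB replicate 1, with a replicate block and with only the 4 libraries compared, with FDR values up to 0.123.

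Forkhead genes outside the Foxa family did not share one direction. Of 22 tested, 8 rose and 5 fell against DMSO in each treatment, and 4 rose and 1 fell between the treatments. The shares called were 59.1%, 59.1% and 22.7%, beside 41.5%, 52.8% and 17.5% of all genes. Foxf2 rose from 2805 and 3025 to 9034 and 8359 under TGF-β (log2 1.58, SE 0.0882, edgeR FDR 0.000144), and Foxq1 from 3939 and 3868 to 9216 and 8456 (log2 1.18, SE 0.0924, edgeR FDR 0.000421). Foxo4 fell from 6938 and 6783 to 3407 and 2974 (log2 -1.11, SE 0.0942, edgeR FDR 0.000575). Foxm1, a factor of the cell cycle, had 4854 and 4196 under TGF-β and 1954 and 1829 under TGF-β+2APB, a fall of log2 -1.26 (SE 0.121, edgeR FDR 0.00462).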

How the data were processed

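RNA of NMuMG cells was sequenced in 6 libraries, 2 biological replicates in each of 3 groups. The authors aligned reads of 50 bases with TopHat2 2.0.13 and counted them per gene with Rsubread 1.16.1, per the study's methods and the submitters' processing notes (build mm10, where the methods text names a human build), and deposited raw counts for 18512 entries. Whether counting used strand is not given in the sources used here. Every value was even and the smallest above 0 was 2. A spreadsheet had turned 25 names into dates. Those entries stayed in the fits unnamed.

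edgeR 4.0.16 (R 4.3.3) was run on these counts. Libraries were scaled by TMM, the 13353 genes whose normalized counts averaged 20 or more were fitted over all 6 libraries by the quasi-likelihood method, and FDR was adjusted over all of them. The biological coefficient of variation was 17.4%. Exon lengths and positions came from GENCODE (GRCm38), which matched 17519 entries. Fold changes against a group at 0 used a floor of 3 counts per library, a bound that covers counting error only. It takes each count as a separate read. If the even values mean that reads were counted more than once, these bounds are too large. Alternatives were DESeq2 1.42.0, other scaling, no minimum, a replicate block, only the libraries compared, each library left out, and halved counts and a crossed replicate block, the last 2 added after seeing the data. The fitting script was tested on simulated data. Genes named were the members, up to 3 called in each direction per list and comparison by size of fold change, set paralogs and markers, and the 2 nearest profiles per member. Prox1, F7, F10, the Serpina1 genes and the other markers were named after their values were seen. A few genes that the rule names are not reported here. The members and lists were chosen with earlier results of these data known. With 2 libraries a group, p-values rest on the spread between these libraries within groups. That spread was estimated over the 3 groups together and drawn towards that of other genes.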

Additional observations from a re-analysis of the deposited data

How the results depend on the processing

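Between the treatments the count of all genes called, 2334, was the least stable. It was 3698 by DESeq2, 1342 with a replicate block and 860 with only the 4 libraries compared, and 834 to 5405 with 1 library left out. The target genes called between the treatments, 15, were 6 with only the 4 libraries compared and 7 to 25 with 1 library left out, and the other liver-enriched factors, 5, were 4 to 9. For TGF-β against DMSO, leaving out 1 library gave 2753 to 7641 genes for 5548 and 9 to 20 other factors for 15, and for TGF-β+2APB against DMSO 4355 to 9006 for 7044 and 11 to 20 for 18. The causes were not tested. The median log2 fold change of the members between the treatments, -0.74, ranged from -1.16 to -0.50 with 1 library left out.

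Replicate numbers did not pair the libraries (correlations of deviations 0.156, -0.479 and -0.247). The replicate block gave 4737 and 6358 genes against DMSO. With the numbers of the TGF-β+2APB libraries crossed, the counts were 5706, 7232 and 2465. Hnf4g was under the minimum count and was not fitted in the main analysis.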

Other observations

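Genes of fibroblast type that the report does not describe rose in the same libraries. The receptor gene Pdgfrb had 9.828 and 12.4 normalized counts in DMSO and 621.4 and 522.9 with TGF-β (log2 5.67, edgeR FDR 6.67e-05), and the collagen gene Col1a1 went from 51.1 and 74.38 to 1625 and 1724 (log2 4.74, edgeR FDR 0.000103), while the fibroblast genes Dcn and Thy1 had 5.919 or fewer in every library. The keratin gene Krt19 fell from 45112 and 42139 in DMSO to 12510 and 8776 with TGF-β and to 1687 and 3441 with TGF-β+2APB (log2 -2.04 for TGF-β against DMSO, edgeR FDR 0.00659). Its call between the treatments (edgeR FDR 0.0174) ended without either DMSO library and with only the 4 libraries compared, with FDR values up to 0.0552. The luminal markers did not share one direction. Epcam and Cdh1 also fell under TGF-β against DMSO (log2 -1.42 and -0.78, edgeR FDR 0.0141 and 0.0055). Both also fell under TGF-β+2APB against DMSO (log2 -0.97 and -1.26, edgeR FDR 0.038 and 0.000682). Krt8 rose from 252654 and 234425 in DMSO to 413159 and 355554 under TGF-β and 729306 and 700430 under TGF-β+2APB (log2 0.66 for TGF-β against DMSO, edgeR FDR 0.00296, and 0.90 between the treatments, edgeR FDR 0.00501). Krt18 rose in the same comparisons (log2 0.92 and 0.89, edgeR FDR 0.00122 and 0.00588), and Gata3 rose from 33.41 and 28.92 to 155.8 and 147.3 with TGF-β (log2 2.28, edgeR FDR 0.00121). The intestinal factor Cdx2 fell in each comparison, from 658.4 and 661.1 to 257.1 and 205.4 and to 41.58 and 57.22 (log2 -2.23 between the treatments, edgeR FDR 0.00497). The intestinal cadherin gene Cdh17 had 25520 and 25656 in DMSO and 29597 and 26021 with TGF-β (log2 0.12, edgeR FDR 0.366) and fell to 9909 and 11187 with TGF-β+2APB (log2 -1.40 between the treatments, edgeR FDR 0.00307).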
